A study of Mus musculus with 16 samples.

Results

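The genes described here encode 10 ATP-dependent chromatin remodellers of the brain outside the SWI/SNF complex: the CHD genes Chd1, Chd2, Chd3, Chd4, Chd5, Chd7 and Chd8, the ISWI genes Smarca1 and Smarca5, and Ino80. They were taken by gene symbol from the array annotation, and all 10 were measured among 19938 genes. Expression was measured with one-colour Affymetrix arrays on total RNA from the core of the olfactory bulb (OB) and from the subependymal zone (SEZ), the germinal layer whose stem cells supply the bulb with new neurons. Conditional knockout (cKO) mice had the genotype GlastCreERT2/Brg1fl/fl, and control mice had the genotype GlastCreERT2/Brg1fl/+, so the controls also carried the recombinase and 1 floxed copy of Brg1. The exception was SEZ control replicate 5, labelled GlastCreERT2/Brg1+/+. The groups were OB cKO (n = 3), OB control (n = 5), SEZ cKO (n = 3) and SEZ control (n = 5), all aged 2.5 months, on a mixed background of C57BL/6 and CD1, with no treatment listed. CreERT2 acts after tamoxifen and is expressed here from the Glast locus (Slc1a3), active in astrocytes and stem cells, so each sample mixed cells with and without the recombinase. Whether and when tamoxifen was given is not stated in the sources used here.

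Chromatin remodellers use ATP to slide, evict or exchange nucleosomes and so set which DNA other proteins can reach. The CHD, ISWI and INO80 families share the SNF2-type motor of Brg1 but work in other complexes: Chd3, Chd4 and Chd5 in the histone-deacetylating NuRD complex, Smarca1 (SNF2L) and Smarca5 (SNF2H) in ISWI complexes that space nucleosomes, and Ino80 in the complex named after it. In the mouse brain Smarca5 is linked with dividing progenitors and Smarca1 with differentiation, Chd5 with neurons, and Chd7, the gene mutated in human CHARGE syndrome, with the activation of neuronal genes in adult neural stem cells.

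Levels are log2 expression values of 1 probe set per gene, given as mean ± SD, and they are compared between groups but not between genes, because each probe set has its own brightness. A difference of 1 is a 2-fold difference, and a gene was called when its limma p was under 0.05 after Benjamini-Hochberg adjustment across the 19938 genes. Smarca4, the gene of Brg1, was at 10.97 to 11.09 in OB cKO and 10.95 to 11.06 in OB control arrays, and at 10.62 to 10.77 in SEZ cKO and 10.66 to 10.78 in SEZ control arrays. Because the probe set is not resolved by exon, it does not test the deletion. Slc1a3 stood apart in cKO replicate 3, at 8.85 in OB against 11.64 to 12.27 in the other OB arrays, and at 8.16 in SEZ against 11.16 to 11.79. Array medians lay between 7.45 and 7.65. The labels call the samples biological replicates, without saying which came from 1 animal, so p-values measure the spread between these samples.

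As over all genes, more of these genes were called between the tissues than between cKO and control mice. In controls, OB differed from SEZ for 4 of the 10 genes, Chd3, Chd5 and Chd8 being higher and Smarca1 lower in OB, beside 27.5% of all genes called in this comparison (12.6% higher and 14.9% lower). Whether 4 of 10 exceeds that share was not tested. The median difference over the 10 was 0.02, against 0.003 over all genes. In cKO mice, whose arrays share no sample with the controls, Chd3 was again higher and Smarca1 lower in OB, which is 2 of 10 beside 23.1% of all genes (10% higher and 13.1% lower). The sign of the difference was the same in both genotypes for 8 of the 10 genes, and for 79.2% of all genes.

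**Figure D1:**
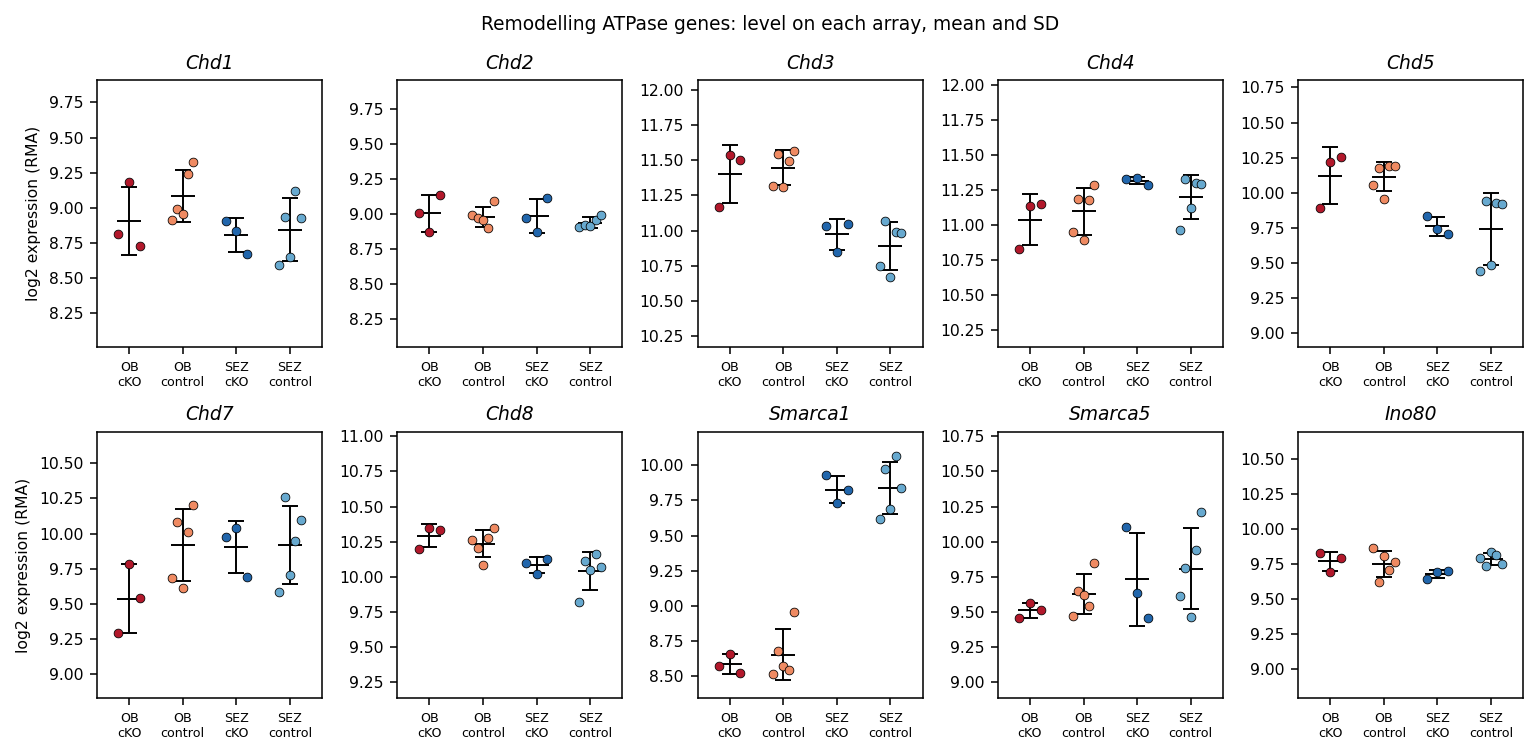
Log2 expression of each of the 10 genes (vertical axis, every panel spanning the same range) on the arrays of OB cKO, OB control, SEZ cKO and SEZ control, with points for arrays, a horizontal bar for the mean and whiskers for the SD. Smarca1 lies between 8.51 and 8.96 on all OB arrays and between 9.62 and 10.07 on all SEZ arrays, and for the other genes the 4 groups lie closer together.

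Smarca1 had the largest difference of the 10 genes between the tissues. Its probe set (10604347) was at 8.57, 8.66 and 8.52 in OB cKO arrays, against 9.93, 9.73 and 9.82 in SEZ cKO arrays. In controls it was at 8.51, 8.68, 8.57, 8.54 and 8.96 in OB, against 9.62, 9.97, 9.69, 10.07 and 9.84 in SEZ. Every OB array was below every SEZ array in both genotypes, as for 19% of all genes in cKO mice and 11.9% in controls. The difference was -1.19 in controls (SE 0.10, 95% interval -1.39 to -0.98, adjusted p = 3.47e-08), so the OB level was 0.440 times the SEZ level, or 2.27-fold higher in SEZ. In cKO mice it was -1.24 (SE 0.12, 95% interval -1.51 to -0.98, adjusted p = 7.17e-07). Both calls held in all 24 and all 20 alternatives that bear on them, with differences from -1.26 to -1.06 in controls and from -1.32 to -1.19 in cKO mice. In bulk tissue, fewer cells that express a gene and less RNA per cell cannot be told apart.

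Smarca1 is an X-linked gene, the labels give sex as not determined, and the arrays fell into high and low levels of Xist, the RNA of the inactive X. In SEZ, Smarca1 spanned 9.62 to 10.07 on the 4 arrays with Xist between 11.8 and 12.4, and 9.69 to 9.97 on the 4 arrays with Xist between 5.82 and 6.80. In OB it spanned 8.51 to 8.66 on 3 arrays with high Xist and 8.52 to 8.96 on 5 with low Xist. The ranges overlapped within each tissue, and the tissues did not overlap in either class. Same-numbered OB and SEZ samples were alike in Xist for 7 of 8 numbers, and the exception was cKO number 1, at 6.08 in OB and 12.4 in SEZ.

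Smarca5, the other ISWI motor, was at 9.46, 9.56 and 9.51 in OB cKO arrays, against 10.10, 9.64 and 9.46 in SEZ cKO arrays (probe set 10579915). Control arrays gave 9.47, 9.65, 9.62, 9.54 and 9.85 in OB, against 9.61, 9.81, 9.46, 9.94 and 10.21 in SEZ. The tissues overlapped in both genotypes. Its difference was -0.18 in controls (95% interval -0.46 to 0.10, adjusted p = 0.372) and -0.22 in cKO mice (95% interval -0.58 to 0.14, adjusted p = 0.417). These values rested much on single arrays, being -0.08 in controls without SEZ control replicate 5 and -0.04 in cKO mice without SEZ cKO replicate 1. Of 24 alternatives in controls, 1 called Smarca5 (array weights, adjusted p = 0.0303). The OB minus SEZ difference of Smarca1 minus that of Smarca5 was -1.02 in cKO mice and -1.004 in controls. This pair was set side by side after its values were seen, so the contrast between them is a description with no test.

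Promoter windows of these ISWI paralogues are shown, since 1 was called between the tissues and the other was not. Each holds 300 bases around the RefSeq start of the gene on GRCm38.p6, most of them before the start, printed 5′ to 3′ on the gene's strand, and 6 of the 10 genes had such a window in the table used. Capitals mark matches, on either strand, to the GC box (GGGCGG, or CCGCCC on the other strand) and the CCAAT box (CCAAT, or ATTGG on the other strand), which do not overlap here. The Smarca1 window lies on the minus strand at chrX:47892564-47892863, and that of Smarca5 on the minus strand at chr8:80739410-80739709.
Smarca1: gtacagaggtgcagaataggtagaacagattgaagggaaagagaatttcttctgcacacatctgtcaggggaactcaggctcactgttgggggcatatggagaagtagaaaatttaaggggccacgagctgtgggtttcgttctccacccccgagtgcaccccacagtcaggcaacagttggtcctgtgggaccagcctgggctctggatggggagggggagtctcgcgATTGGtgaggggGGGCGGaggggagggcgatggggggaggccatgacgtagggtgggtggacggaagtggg
Smarca5: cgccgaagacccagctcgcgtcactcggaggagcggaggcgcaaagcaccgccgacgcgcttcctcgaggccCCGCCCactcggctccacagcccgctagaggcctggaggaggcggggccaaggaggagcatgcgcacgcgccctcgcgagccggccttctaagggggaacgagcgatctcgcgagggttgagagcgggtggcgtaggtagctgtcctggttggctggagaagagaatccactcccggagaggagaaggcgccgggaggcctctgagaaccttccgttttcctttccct
The Smarca1 window held 1 GC box and 1 CCAAT box, and the Smarca5 window held 1 GC box and 0 CCAAT boxes. Among all 32851 windows, 35.7% held a GC box and 37.4% a CCAAT box. CG dinucleotides numbered 9 in the Smarca1 and 32 in the Smarca5 window, against a median of 7 over all windows, with 54.2% and 90.5% of windows holding fewer. These letters are a description of the windows, and nothing about binding was measured.

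Among the NuRD motors, Chd3 and Chd5 were higher in OB and Chd4 was not called. Chd3 (probe set 10387316) was at 11.17, 11.54 and 11.50 in OB cKO arrays, against 11.03, 10.85 and 11.05 in SEZ cKO arrays. In controls it was at 11.32, 11.55, 11.31, 11.49 and 11.57 in OB, against 10.74, 11.06, 10.67, 10.99 and 10.98 in SEZ. All OB arrays were above all SEZ arrays of the same genotype, as for 14.3% of all genes in cKO mice and 9.93% in controls. The difference was 0.56 in controls (SE 0.09, 95% interval 0.36 to 0.76, adjusted p = 0.000183), a 1.47-fold higher level in OB, and it was called in all 24 alternatives. In cKO mice it was 0.43 (SE 0.12, 95% interval 0.17 to 0.69, adjusted p = 0.0154). That call was lost with arrays centred on their medians (adjusted p = 0.109), without OB cKO replicate 2 (0.0629), without OB cKO replicate 3 (0.069), without SEZ cKO replicate 2 (0.0737), and without the cKO samples numbered 3 (0.0813), at differences of 0.35 to 0.42.

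Chd5, the NuRD motor known from neurons (probe set 10510725), was at 9.89, 10.22 and 10.26 in OB cKO arrays, against 9.84, 9.74 and 9.71 in SEZ cKO arrays. Control values were 10.05, 10.18, 9.96, 10.19 and 10.19 in OB, against 9.45, 9.94, 9.48, 9.92 and 9.92 in SEZ. The OB arrays again lay above the SEZ arrays of the same genotype without overlap, although OB control replicate 3 and SEZ control replicate 2 were close, and the SEZ controls fell into a low pair (replicates 1 and 3) and a high trio. The difference was 0.37 in controls (SE 0.11, 95% interval 0.14 to 0.60, adjusted p = 0.0145), or 1.29-fold, and 0.36 in cKO mice (95% interval 0.07 to 0.65, adjusted p = 0.0731), which did not pass. The cKO difference was called in 7 of 20 alternatives, among them a threshold of 0.1 and the one without OB cKO replicate 1. The lowest adjusted p (0.00415) came with a covariate made of the strongest component within groups. That covariate was made from these same data and takes spread out of the groups by design, so its p-values are no independent support. The call in controls was lost with arrays centred on their medians (difference 0.34, adjusted p = 0.0683).

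Chd4, the main NuRD motor of many cell types (probe set 10541803), was at 10.83, 11.14 and 11.15 in OB cKO arrays, against 11.32, 11.33 and 11.29 in SEZ cKO arrays. In controls it averaged 11.10 ± 0.17 in OB and 11.20 ± 0.16 in SEZ (n = 5 each). All 3 OB cKO arrays were below all SEZ cKO arrays, an arrangement that 19% of all genes showed in that direction, while the control arrays overlapped. The difference was -0.28 in cKO mice (95% interval -0.53 to -0.02, adjusted p = 0.116) and -0.10 in controls (95% interval -0.30 to 0.09, adjusted p = 0.491), and neither passed. The cKO difference was called in 3 of 20 alternatives. They were array weights (adjusted p = 0.0461), a fixed block on the replicate number (0.0319) and the covariate made from these same data (0.0159). Without OB cKO replicate 1 the difference was -0.17.

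Chd8, whose human gene is tied to autism (probe set 10419638), was called higher in OB by a narrow margin. It was at 10.20, 10.35 and 10.33 in OB cKO arrays, against 10.10, 10.02 and 10.13 in SEZ cKO arrays. Controls gave 10.26, 10.20, 10.09, 10.28 and 10.35 in OB, against 9.82, 10.11, 10.05, 10.16 and 10.07 in SEZ, where the lowest OB array was below the 2 highest SEZ arrays. The difference was 0.19 in controls (SE 0.07, 95% interval 0.05 to 0.34, adjusted p = 0.0494), or 1.14-fold, and 0.21 in cKO mice (95% interval 0.02 to 0.40, adjusted p = 0.116). With the control arrays of both tissues paired by replicate number, the call was lost (adjusted p = 0.0671). Of 24 alternatives for controls 10 kept the call, and of the 10 that left out 1 array only those without OB control replicate 3 or SEZ control replicate 4 did, over adjusted p from 0.0164 to 0.228 in all alternatives.

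Chd1, Chd2 and Ino80 were not called between the tissues. Chd1, which binds methylated histone H3 at active genes (probe set 10441987), averaged 8.91 ± 0.24 in OB cKO and 8.81 ± 0.12 in SEZ cKO arrays (n = 3 each), and 9.09 ± 0.18 in OB control and 8.84 ± 0.22 in SEZ control arrays (n = 5 each). Its difference in controls was 0.24 (95% interval -0.01 to 0.49, adjusted p = 0.15). With the control arrays of both tissues paired by replicate number, a block chosen after seeing the data, it was called (adjusted p = 0.0226). That pairing is an assumption, and control number 5 has unlike genotype labels in OB and SEZ. Chd1 was called in 4 of 24 alternatives in all. Also among them were a fixed block on the replicate number (adjusted p = 0.0257) and the covariate made from these same data (0.00385). The last left out SEZ controls 2 and 4, which had high cortical markers (difference 0.36, adjusted p = 0.0491). Chd2, whose human gene is mutated in epileptic encephalopathy (probe set 10564573), averaged 8.98 ± 0.07 in OB control and 8.94 ± 0.04 in SEZ control arrays, a difference of 0.04 (95% interval -0.09 to 0.18, adjusted p = 0.719). Ino80, the motor of the INO80 complex (probe set 10486203), averaged 9.75 ± 0.09 in OB control and 9.79 ± 0.04 in SEZ control arrays, a difference of -0.03 (95% interval -0.15 to 0.08, adjusted p = 0.745). In cKO mice the differences of Chd1, Chd2 and Ino80 were 0.10, 0.02 and 0.09, with adjusted p of 0.716, 0.918 and 0.418.

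**Figure D2:**
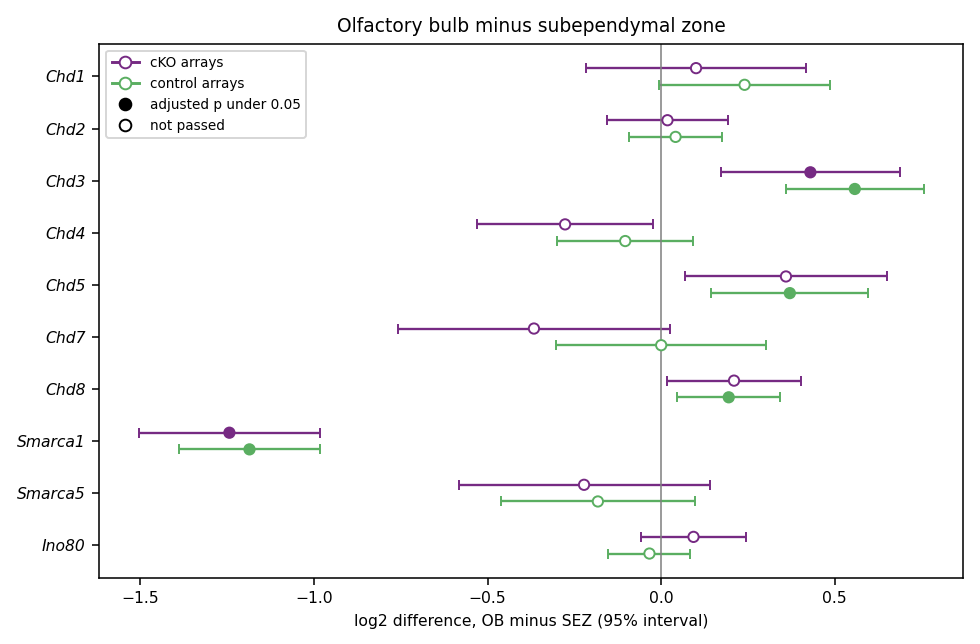
Log2 difference of OB minus SEZ (horizontal axis) for each gene in cKO arrays and in control arrays, with 95% intervals from the limma fit and filled points where the adjusted p is under 0.05. Smarca1 lies at -1.24 in cKO and -1.19 in control arrays, Chd3 at 0.43 and 0.56, and Chd7 at -0.37 in cKO and 0.00 in control arrays.

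The 2 tissues also differed in their cell types, and the part of this in the differences above was not tested. In controls, markers of granule and periglomerular neurons were higher in OB for 10 of 10 genes, with list means from 11.6 to 11.7 in OB and from 8.62 to 8.80 in SEZ arrays. Markers of striatal projection neurons were lower for 7 of 7 (9.11 to 9.24 in OB, 12.7 to 12.9 in SEZ), those of myelinating oligodendrocytes for 7 of 7 (10.6 to 10.9 and 11.5 to 12.1) and those of ependymal cells for 8 of 8 (7.28 to 7.36 and 8.17 to 8.57). Cell-cycle genes were lower in OB for 9 of 10. Cortical markers reached 8.79 in SEZ control arrays, against at most 7.74 in SEZ cKO arrays.

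The comparison of Brg1 cKO with control mice is the one the series was made for, and no gene of the 10 passed between cKO and control mice in either tissue. In OB this is 0 of 10 beside 0.0451% of all genes, and 1 of 10 at an unadjusted p under 0.05 beside 3.51%. In SEZ it is 0 of 10 beside 0% of all genes, and 0 of 10 at an unadjusted p under 0.05 beside 2.47%. The difference between the 2 effects passed for 0 of 10, beside 0.00502% of all genes. The differences spanned -0.38 to 0.06 in OB, with 6 below 0, and -0.11 to 0.11 in SEZ, with 5 below 0. Their 95% intervals reached 0.14 to 0.35 to either side, with outer bounds of -0.73 and 0.27 in OB and of -0.40 and 0.34 in SEZ. With 3 against 5 arrays, changes smaller than these widths could not be resolved. These intervals are for single genes and are not adjusted for the number of genes tested, whereas the calls are. Changes larger than the widths could therefore also go uncalled, as did the Chd7 difference of -0.38 in OB, whose interval left out 0. The smallest change that would have been called was not determined.

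**Figure D3:**
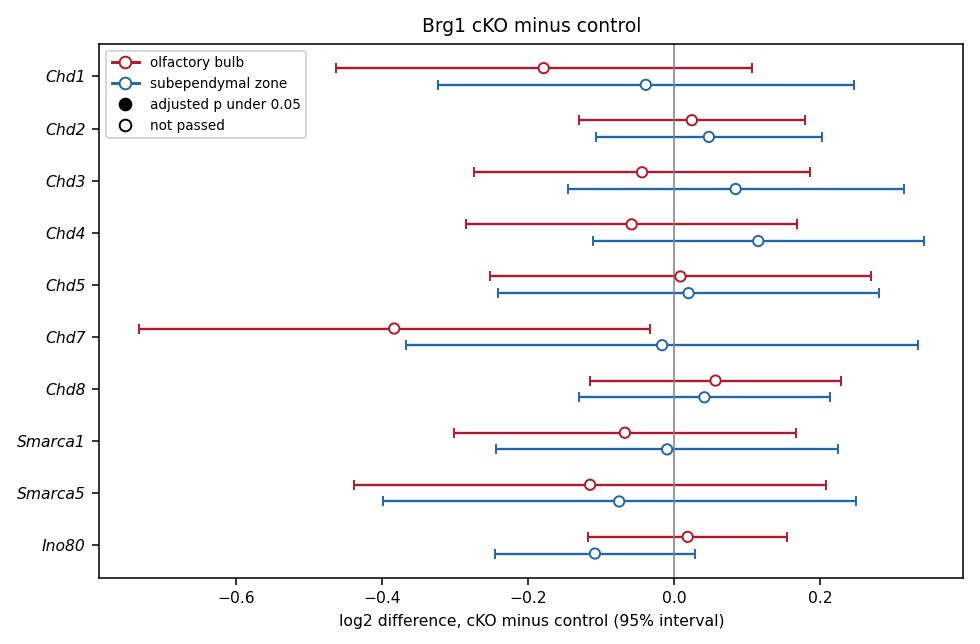
Log2 difference of cKO minus control (horizontal axis) for each gene in OB and in SEZ, with 95% intervals from the limma fit. Chd7 in OB lies farthest from 0, at -0.38 with an interval of -0.73 to -0.03, and no gene has an adjusted p under 0.05.

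No motor called between the tissues passed here, and no other motor did. Smarca1 differed by -0.07 in OB (95% interval -0.30 to 0.17) and by -0.01 in SEZ (95% interval -0.24 to 0.22). Chd3 differed by -0.04 and 0.08, Chd5 by 0.01 and 0.02, and Chd8 by 0.06 and 0.04, in OB and SEZ in that order. Among the others, Chd1 differed by -0.18 in OB (95% interval -0.46 to 0.11), Chd4 by 0.11 in SEZ (95% interval -0.11 to 0.34), and Smarca5 by -0.12 in OB and -0.08 in SEZ. Leaving out 1 array moved Chd1 in OB between -0.32 (without OB cKO replicate 2) and -0.09 (without OB cKO replicate 3), and Chd4 in SEZ between 0.06 (without SEZ control replicate 1) and 0.15.

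Ino80 was the one gene of the 10 whose cKO and control arrays did not overlap. In SEZ it was at 9.64, 9.69 and 9.70 in cKO arrays, against 9.79, 9.74, 9.84, 9.81 and 9.75 in control arrays. All 3 cKO arrays were below all 5 controls, an arrangement that 1.05% of all genes showed in that direction, and the gap between the nearest arrays was small. The difference was -0.11 (SE 0.06, 95% interval -0.25 to 0.03, unadjusted p = 0.111, adjusted p = 1). In OB, where the arrays overlapped, it was 0.02 (95% interval -0.12 to 0.15).

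Chd7 had the largest difference between cKO and control of the 10 genes, in OB. Its brightest probe set (10503184) was at 9.29, 9.78 and 9.54 in OB cKO arrays, against 9.69, 10.08, 9.61, 10.01 and 10.21 in OB control arrays. In SEZ it was at 9.97, 10.04 and 9.69 in cKO arrays, against 9.59, 10.26, 9.71, 9.95 and 10.09 in control arrays. OB cKO replicates 1 and 3 were below every OB control, replicate 2 lay within their range, and in SEZ the groups overlapped throughout. The OB difference was -0.38 (SE 0.17, 95% interval -0.73 to -0.03, unadjusted p = 0.0337), and its adjusted p was 1. It was -0.26 without OB cKO replicate 1 and -0.51 without OB cKO replicate 2, and over 22 alternatives the adjusted p lay between 0.107 and 1. The SEZ difference was -0.02 (95% interval -0.37 to 0.33), and the SEZ difference minus the OB difference was 0.37 (SE 0.23, 95% interval -0.13 to 0.86, unadjusted p = 0.136, adjusted p = 1).

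Chd7 was read by 30 probe sets, each covering a stretch of the same gene, so they are repeated readings of that gene and not replicates. Whether all of them read the same transcripts was not tested. In OB, 29 of the 30 were lower in cKO than in control arrays, as were 52.3% of all 21789 probe sets with 1 gene. Their differences ran from -0.56 to 0.03 with a median of -0.21. None passed at an adjusted p under 0.05, 4 had an unadjusted limma p under 0.05, and 0 separated the groups without overlap. In SEZ, 12 were below and 18 above 0, beside 47.8% of all probe sets below 0, with a median of 0.02. The mean of all 30 was 7.95, 8.33 and 8.15 in OB cKO arrays, against 8.22, 8.55, 8.12, 8.44 and 8.67 in OB control arrays.

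The lower readings came unequally from the 3 OB cKO arrays. Replicate 1 was also the lowest of these 3 for 6 of the 10 genes and among the lowest 2 of the 3 for 9. Replicate 1 was below all 5 OB controls for 26 of the 30 probe sets, replicate 3 for 10 and replicate 2 for 1. Their median deviations from the OB control mean were -0.48, -0.16 and -0.08, in the same order. In SEZ the 3 cKO arrays were below all controls for 2, 0 and 0 probe sets in replicates 1, 2 and 3. Such counts per array were not made over all genes or all probe sets, so no share stands beside them.

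**Figure D4:**
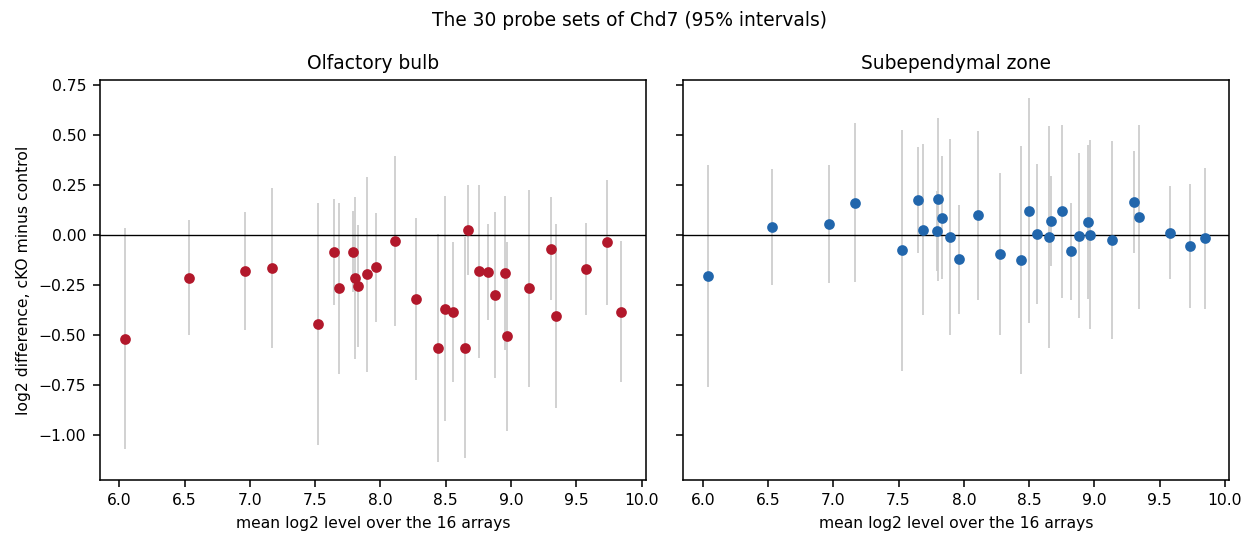
Log2 difference of cKO minus control (vertical axis) for each of the 30 Chd7 probe sets against its mean log2 level over the 16 arrays (horizontal axis), in OB on the left and SEZ on the right, with grey lines for 95% intervals from the limma fit. In OB 29 of 30 lie below 0 (52.3% of all probe sets) with a median of -0.21, and in SEZ 12 of 30 do (47.8% of all probe sets) with a median of 0.02.

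Some genes of new neurons were lower in the same OB cKO arrays, and their part in the Chd7 values was not tested. Of 11 neuroblast markers 4 were called lower in OB cKO, beside 0.0451% of all genes called in either direction. Among them was Cd24a, a surface protein of migrating neuroblasts, at 0.354 times the OB control level (adjusted p = 0.00525). The others were St8sia2, Nrep and Tubb2b, at differences of -0.84, -0.71 and -0.58. The list mean ranged from 10.2 to 10.5 in OB cKO and from 10.8 to 11.1 in OB control arrays. The other 7 markers did not pass in OB. They were Dcx (-0.32), Dlx1 (-0.08), Dlx2 (-0.20), Dlx5 (-0.03), Tubb3 (-0.10), and Sox4 and Sox11, given below. Dcx differed by -0.33 in SEZ. In SEZ, where Chd7 differed by -0.02, 0 of 11 markers passed, and the list mean was also lower without overlap, at 9.67 to 9.74 in cKO and 9.80 to 10.17 in control arrays. Sox4 and Sox11, transcription factor genes that Chd7 is known to promote in adult mouse neural stem cells, differed by -0.49 (SE 0.12, adjusted p = 0.433) and -0.89 (SE 0.19, adjusted p = 0.291), and neither passed. Sox11 was at 8.82, 9.64 and 8.84 in OB cKO arrays, against 9.75, 9.94, 9.60, 10.20 and 10.43 in OB control arrays. Replicate 2 was its highest OB cKO array, as for Sox4 and for 6 of the 10 motor genes, Chd7 among them. Cd24a was instead highest in replicate 1, at 9.06, 8.57 and 8.44 in OB cKO replicates 1, 2 and 3. How many of all genes were highest in replicate 2 was not counted.

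Between the tissues, the brightest Chd7 probe set was at the same mean level in controls, 9.92 ± 0.26 in OB and 9.92 ± 0.28 in SEZ (n = 5 each), a difference of 0.00 (95% interval -0.30 to 0.30). In cKO mice the difference was -0.37 (95% interval -0.76 to 0.02, adjusted p = 0.184), and it uses the OB cKO arrays described above. It was called in 2 of 20 alternatives. They were a fixed block on the replicate number (adjusted p = 0.0186) and the covariate made from these same data (0.00543). Without OB cKO replicate 1 the difference was -0.24. The second brightest probe set (10503161) read otherwise. It was higher in OB by 0.31 in controls (95% interval 0.04 to 0.58, adjusted p = 0.0817) and by 0.33 in cKO mice (adjusted p = 0.176). Of the 30 probe sets, 7 were lower in OB in controls and 27 in cKO mice, beside 49.5% and 53.8% of all probe sets with 1 gene. None passed in either genotype, and the 30 are repeated readings of 1 gene on the same arrays.

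Partners of these motors and other SNF2-type motors were measured by 53 of 54 listed genes in 5 lists. In controls 12 were higher and 3 lower in OB, which is 28.3% of them beside 27.5% of all genes. In cKO mice 6 were higher and 1 lower, which is 13.2% beside 23.1% of all genes. Between cKO and control, 0 passed in either tissue, over differences of -0.32 (Hdac2) to 0.13 (Actr5) in OB and -0.17 (Cdk2ap1) to 0.12 (Chd6) in SEZ.

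The ISWI partner Baz2a, which joins Smarca5 in the ribosomal gene silencing complex NoRC, was higher in OB by 0.66 in controls (adjusted p = 2.71e-06) and by 0.82 in cKO mice (adjusted p = 5.83e-06), the 1 of 9 ISWI partners that passed. Among 12 NuRD partners, the deacetylase gene Hdac1 was higher in OB by 0.42 in controls (adjusted p = 0.00142) and by 0.50 in cKO mice (adjusted p = 0.00343), and Gatad2a by 0.20 (adjusted p = 0.0401) and 0.31 (adjusted p = 0.0152). The methyl-CpG binding gene Mbd2 was lower by 0.17 in controls (value -0.17, adjusted p = 0.0278). Of 13 INO80 partners, Nfrkb was higher in OB by 0.52 in controls (adjusted p = 0.0104) and by 0.71 in cKO mice (adjusted p = 0.00849), and Mcrs1 by 0.29 in controls (adjusted p = 0.00574).

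Of 3 other CHD genes, 1 was higher and 1 lower in OB in controls, beside 12.6% and 14.9% of all genes. Chd6 was not called (difference 0.28, adjusted p = 0.169). Chd9 was higher in OB by 0.36 in controls (adjusted p = 0.00372) and by 0.35 in cKO mice (adjusted p = 0.0301), and Chd1l, a motor of DNA repair, was at -0.32 in controls (adjusted p = 0.00209). Of 16 other SNF2-type motors, 6 were higher and 1 was lower in OB in controls, beside 12.6% and 14.9% of all genes, and in cKO mice 1 was higher and 1 lower. The SWI/SNF motors went opposite ways: Smarca4 was higher in OB by 0.30 in controls (adjusted p = 0.000214) and by 0.31 in cKO mice (adjusted p = 0.00199), whereas Smarca2, its paralogue, was at -0.58 in controls (adjusted p = 1.28e-05) and -0.68 in cKO mice (adjusted p = 6.05e-05). Atrx, which places histone H3.3, Smarcad1 and Btaf1 were higher by 0.34, 0.29 and 0.27 in controls (adjusted p = 0.0262, 0.0182 and 0.0349), and did not pass in cKO mice (adjusted p = 0.224, 0.239 and 0.112).

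**Figure D5:**
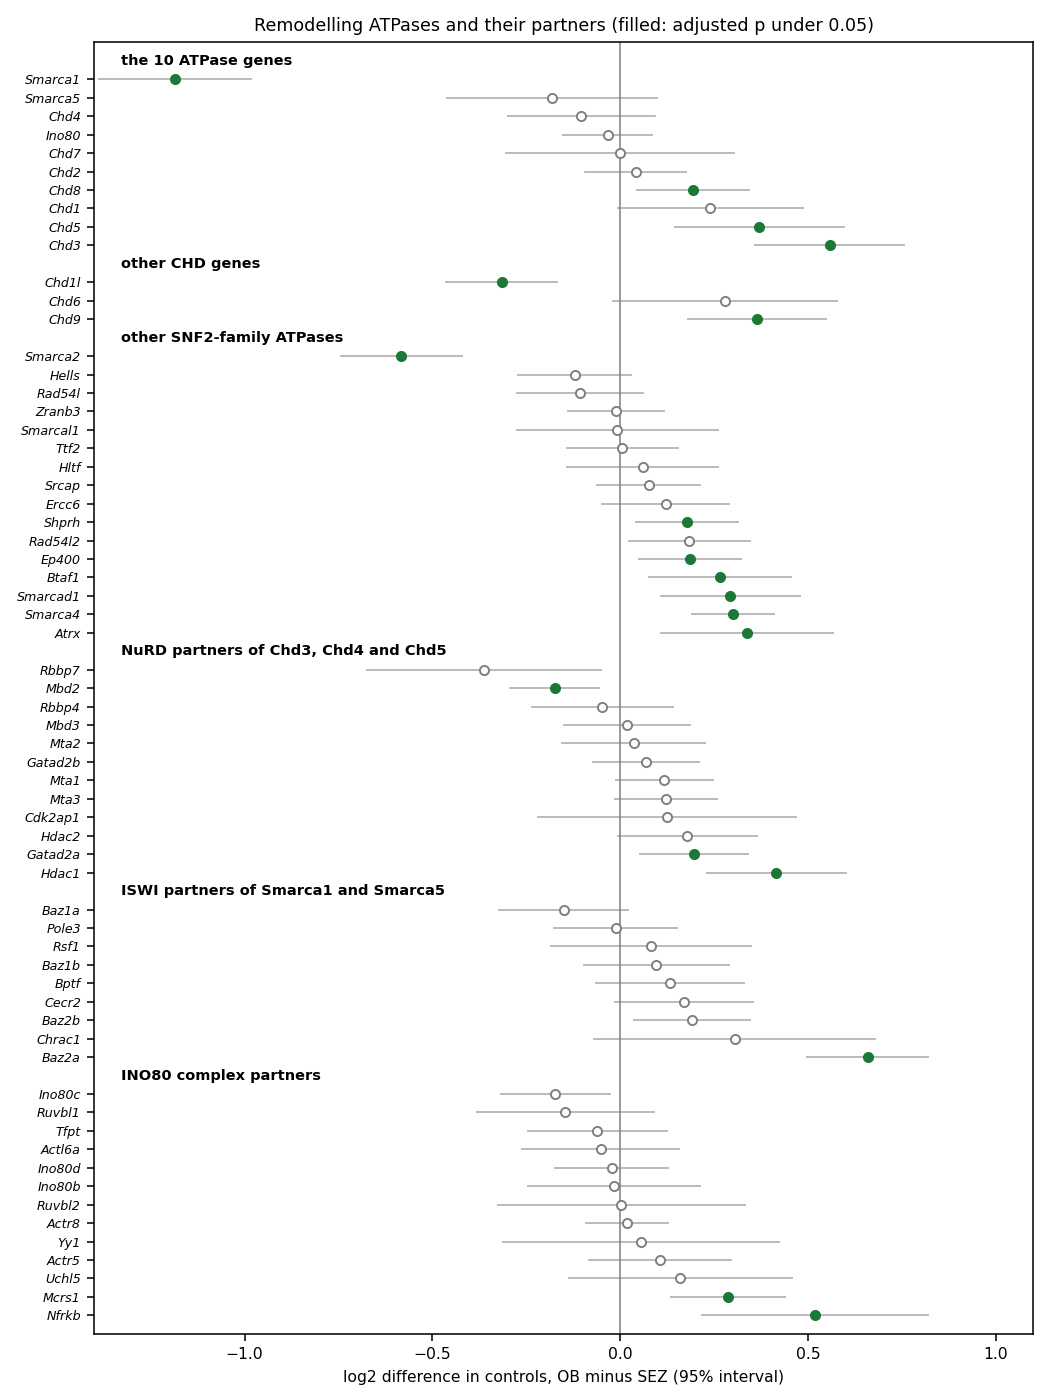
Log2 difference of OB minus SEZ in controls (horizontal axis) for the 10 genes at the top and the listed partners and other motors under them, 1 gene to a row, with lines for 95% intervals from the limma fit and filled points where the adjusted p is under 0.05. Smarca1 lies farthest to the left at -1.19, and among the listed genes Baz2a lies at 0.66 and Smarca2 at -0.58.

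Across all 16 arrays, which share the split into tissues, the genes most like each called motor were found by Pearson's r. For Smarca1 they were D7Ertd443e (0.991), Klhl2 (0.989) and Plcl2 (0.988). For Chd3 they were Nrxn2 (0.977), Clip2 (0.969) and Tiam1 (0.968), for Chd5 Astn1 (0.947), Sfmbt1 (0.943) and Macir (0.943), and for Chd8 Btaf1 (0.941), Pdcd11 (0.933) and Ep400 (0.930). Among the 10 genes themselves, Chd3 and Chd5 were the most alike, with r = 0.939. Some arrays ran low or high for most of the 10: SEZ control replicates 1 and 3 were each among the lowest 2 of their group for 9 of 10 genes, and OB control replicate 5 was the highest of its group for 9 of 10. These orders were not counted over all genes, so whether they are particular to the 10 was not tested.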

How the data were processed

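Total RNA of 16 samples was hybridised to Affymetrix arrays. The deposited log2 values per probe set were made by the authors with RMA in Affymetrix Expression Console 1.2, per the submitters' processing notes. Sources used here name no genome build for the probe sets. RMA sets all arrays to 1 distribution, so levels are relative to the other genes on an array.

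Of 35556 probe sets, 21789 had 1 gene symbol, 1621 several and 12146 none. The brightest probe set with 1 symbol stood for a gene, giving 19938 genes. A single linear model with moderated variances (limma 3.58.1, R 4.3.3) covered all arrays (4 groups, no covariate, 12 residual degrees of freedom), with two-sided tests and Benjamini-Hochberg adjustment over all genes at 0.05. The fit was also run on data simulated with independent errors for each array, which cannot show the effect of spread shared between arrays. The number of arrays limits the precision. The 10 genes are all described, partner genes are named where they passed, up to 5 per list and comparison, and for each motor called in controls the 3 genes with the highest r are named. Same-numbered OB and SEZ samples had residual correlations of 0.17 to 0.57 over the 5 control numbers and -0.06 to 0.39 over the 3 cKO numbers. No label pairs them. Pairing the controls by number was an assumption of some alternatives, and the cKO numbers were not taken as pairs. For control number 5 the labelled genotypes differ between OB and SEZ. Same-numbered cKO and control arrays, which are from different mice, correlated at 0.32 to 0.43 in OB and -0.41 to 0.61 in SEZ. These correlations therefore do not show which samples are pairs. Members, lists and tests were chosen with earlier results of these data known. Promoter windows are from RefSeq (GRCm38.p6). Alternatives covered normalisation, array weights, probe set choice, blocks and left-out arrays.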

Additional observations from a re-analysis of the deposited data

How the results depend on the processing

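In controls 4 of the 10 genes passed between OB and SEZ; with arrays centred on their medians 2 did (Chd5 and Chd8 were lost), and leaving out 1 array gave 3 to 4. In cKO mice 2 passed; cyclic loess gave 4, centring 1, leaving out the cKO samples numbered 3 in both tissues 1, leaving out 1 array 1 to 3, and a covariate made of the strongest component within groups, chosen after seeing the data, 6. Centring moved the calls over all genes in cKO mice to 1487 higher and 3073 lower in OB, against 1993 and 2621. A replicate block in the control arrays alone, chosen after seeing the data, gained Chd1, lost Chd8 and changed no other call (4 passed). A fixed block on the number over both genotypes gave 5 in controls (Chd1 gained) and 5 in cKO mice (Chd4, Chd5 and Chd7 gained), although the cKO numbers were not taken as pairs, and 5 of 8 samples were closest to their own number. A random block gave 4 and 3. Between cKO and control 0 of 10 passed under every alternative run. The cause was not tested for any of these.

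Single differences that turned sign lay between -0.121 and 0.112 after the turn, and none was called. For scale, the largest main difference between cKO and control in SEZ was 0.115. For cKO minus control in OB, centring gave Chd2 -0.0194, Chd5 -0.0350 and Ino80 -0.0252; cyclic loess gave Chd3 0.0149 and Chd4 0.000613; array weights gave Chd5 -0.0624; the replicate block gave Chd3 0.015, Chd4 0.0167 and Smarca1 0.0029; leaving out cKO 1 gave Chd3 0.0736, Chd4 0.047 and Ino80 -0.0095, and cKO 3 gave Chd2 -0.0416 and Chd5 -0.0587. In SEZ, the replicate block gave Chd1 0.0867, Chd7 0.0801, Smarca1 0.0608 and Smarca5 0.0362; leaving out SEZ controls 2 and 4 gave Chd1 0.0837, Chd7 0.107 and Smarca1 0.112; leaving out cKO 3 gave Chd1 0.0279, Chd2 -0.0175, Chd7 0.088 and Smarca5 0.0611, and cKO 1 gave Chd5 -0.0179; array weights gave Chd5 -0.103, and the mean of the probe sets gave Chd7 0.0228. For OB minus SEZ, Chd7 in controls was -0.0331 centred and -0.121 with array weights, and Chd2 in cKO mice was -0.0607 centred. Leaving out 1 array gave, in OB, Chd2 -0.0416 to 0.0894, Chd3 -0.112 to 0.0736, Chd4 -0.114 to 0.047, Chd5 -0.0587 to 0.124, Ino80 -0.0147 to 0.056 and Smarca1 -0.106 to 0.00825. In SEZ it gave Chd1 -0.103 to 0.0299, Chd2 -0.0175 to 0.106, Chd5 -0.0545 to 0.069, Chd7 -0.0999 to 0.088, Chd8 -0.0146 to 0.0721, Smarca1 -0.0638 to 0.0474 and Smarca5 -0.26 to 0.0611. For OB minus SEZ it gave Chd7 in controls -0.0831 to 0.0862, and in cKO mice Chd1 -0.0377 to 0.191 and Chd2 -0.0473 to 0.0837.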

Other observations

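Some probe sets match a motor and another gene at once and were left out above. The 3 that match Smarca5 and also Gm13034 and Smarca5-ps differed between OB and SEZ controls by -0.17, -0.06 and -0.14, beside -0.18 for the probe set of Smarca5 alone. The 12 that match both Ino80 and Rpl35a differed by -0.33 to -0.18, beside -0.03 for the probe set of Ino80 alone, and the signals of the 2 genes cannot be told apart there.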
